A study of Mus musculus with 63 samples.

Results

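Of the 63 RNA libraries of the series, 8 were compared here: 5 that carry the label wild-type (B6), female, old, interferon-gamma and 3 that carry the label wild-type (B6), female, young, interferon-gamma. The groups follow the names of the columns in the count table (old 1 to 5, and young 1, 2 and 5), not a measured value. The comparison was taken up with earlier results of these data known. The study set mice with the R1441C Lrrk2 knock-in against B6 controls in both sexes, at 2 ages, and with or without interferon-gamma; all 8 libraries here are B6. The labels give the old mice as 18 to 21 months and the young as 2 to 3 months. Peritoneal cells were collected 72 hours after an injection of 3% thioglycollate broth, and the mice also received buprenorphine. The cells were left to adhere, washed, and kept for 18 hours with 100 U of interferon-gamma, while untreated cells had water. Adherence was the only selection for macrophages, so other peritoneal cells that stick can be present. Numbered replicates are not said to be single animals or pools, so the p-values measure the spread between libraries. Old and young are used as the names of the labels throughout.

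Interferon-gamma is a cytokine of T cells and natural killer cells. Its receptor signals to GAS elements in promoters and switches on IRF1, CIITA, guanylate-binding proteins, the MHC machinery, CXCL9 and CXCL10 and, in mouse macrophages, inducible nitric oxide synthase. Macrophages recruited to the peritoneum by thioglycollate come largely from monocytes and are rich in lysosomal, lipid-handling and matrix-degrading gene products, whereas the resident large peritoneal macrophages depend on GATA6.

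The 8 libraries held 73.6 to 101.2 M counts each (M is 1000000; all 63 libraries: 73.6 to 106.6 M), young 1 being the shallowest. The 13 macrophage markers summed to 26038 to 30140 counts per 1000000 counts (CPM) in the young and 21290 to 28820 CPM in the old libraries. Old 2 and young 1 stood apart. Young 1 correlated better with old 2 (r = 0.962 over log2 CPM of the tested genes, as a description) than with young 2 (0.942) or young 5 (0.949). Immunoglobulin V segments, whose mix is a mark of the B cells in a preparation, also crossed the age labels. *Ighv5-6* took 41.9%, 42.1% and 38.6% of all V-segment counts in young 2, old 3 and old 4 and at most 0.37% in the other 5 libraries. *Igkv1-117* took 17.9% and 13.9% in young 1 and old 2, and *Igkv12-89* took 19.1% and 17.5% in young 5 and old 5. *Igkv12-89* also took 13.2% in old 2 and 6.82% in young 1, so this segment did not mark 1 set alone. On the log scale, V-segment use correlated at 0.914 or more within these sets and at 0.886 or less between them; old 1 belonged to none. Of the 5 pairs within sets, 4 join a young to an old library. Whether such libraries share an animal or a pool was not tested. No 2 libraries agreed within sampling noise. Results are therefore given with all 8 libraries, without old 2 and young 1, and, for some genes, with the V-segment sets as a block, a fit chosen after seeing the data.

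The interferon-gamma label and the levels of interferon-gamma target genes were also at odds across the wild-type females. *Gbp2*, a guanylate-binding protein, averaged 6835 ± 762 CPM (SD, n = 5) in untreated old and 85.2 ± 96.8 CPM (SD, n = 3) in untreated young libraries. Its 655, 693 and 883 CPM in the interferon-gamma young libraries thus lay below the untreated old level. In wild-type males with interferon-gamma, *Gbp2* averaged 5087 ± 344 CPM in old and 339 ± 182 CPM in young libraries (SD, n = 5 each). Knock-in females with interferon-gamma averaged 5787 ± 146 CPM in old and 130 ± 149 CPM in young libraries (SD, n = 5 and 2). The comparisons by treatment, sex and genotype below rest on these same labels. The treatment and age labels are kept as the descriptions give them. For 3 knock-in old male libraries, none among the 8, the treatment field says interferon-gamma while title and description say untreated. These were grouped as untreated and enter only the shared fit of all 63 libraries.

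Of 22147 genes tested with edgeR's quasi-likelihood test in 1 fit of all 63 libraries, 7577 (34.2%) had an adjusted p under 0.05: 3804 (17.2%) were higher and 3773 (17%) lower in old than in young. A fit of the 8 libraries alone called 1787 higher and 1215 lower. It takes the spread from fewer samples, with old 2 and young 1 among them, and why fewer genes were called was not tested. Changes are log2 old minus young, ± the standard error, with n = 5 and 3. The standard error is the size of the change over the square root of F in the fit of all 63 libraries. It is therefore not the spread of these 8 libraries alone. The CPM ranges of the groups did not overlap for 24.3% of the genes tested, and 341 higher and 423 lower genes changed by more than 4-fold. Without old 2 and young 1, 6619 (29.9%) were called: 3801 (17.2%) higher and 2818 (12.7%) lower; 3333 and 2554 of these were shared with the 8-library calls and none was called in the opposite direction. The median log2 change over all tested genes was -0.07, and 0.02 without the 2 libraries.

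**Figure D1:**
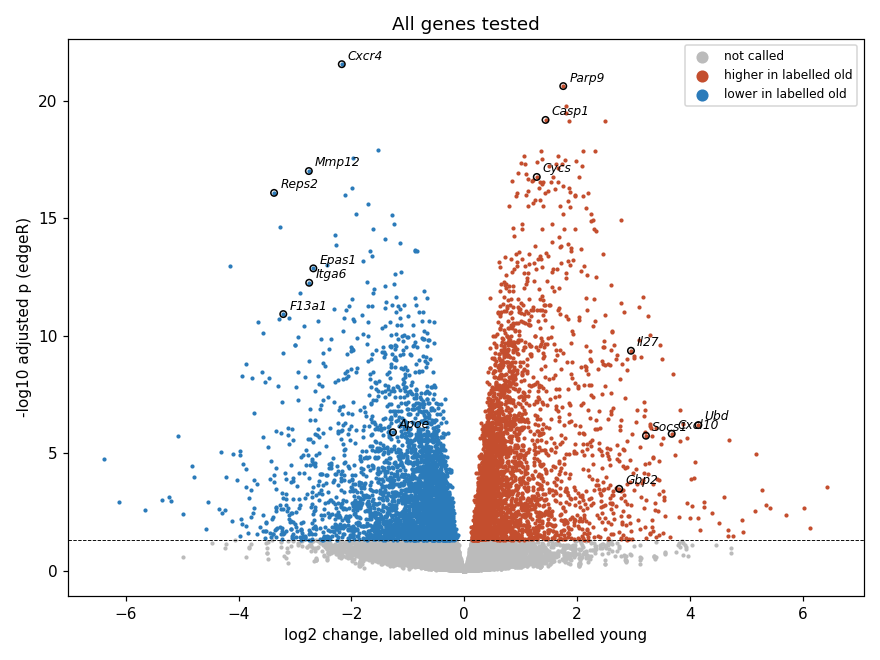
Each point is 1 of the 22147 genes tested; the x axis is the log2 change (old minus young label), the y axis -log10 of the adjusted p, and the dashed line is 0.05. *Parp9* (log2 change 1.75 ± 0.09) has a small p-value among the higher genes and *Cxcr4* (-2.17 ± 0.10) among the lower genes, while *Ubd* (4.15 ± 0.64) is higher with a larger spread.

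Genes of the interferon-gamma response were higher in every old library than in every young library in nearly all cases. All 42 members of the list were called higher, against 17.2% of all genes, and all 42 also without old 2 and young 1; their median change was 2.84, and the groups did not overlap for 39 of them (13.4% of all genes). The list was drawn up with earlier results of these data known. Counts of all lists below stand against 17.2% higher and 17% lower over all genes with all libraries. Values are given in the order young 1, 2 and 5 and old 1 to 5. Several members of the interferon-gamma response list are GTPases that attack pathogen vacuoles. *Gbp2* was at 655, 693 and 883 CPM in the young and 5166, 4599, 5089, 5717 and 4372 CPM in the old libraries (2.75 ± 0.62, adjusted p = 0.000331). The immunity-related GTPase *Irgm1* was at 128, 139 and 182 and 876, 739, 881, 876 and 866 CPM (2.50 ± 0.25, adjusted p = 1.35e-11). The groups did not overlap for either gene, and old 2 was the lowest old library for *Irgm1*. *Iigp1*, another immunity-related GTPase, stood at 196, 206 and 262 and 1649, 1648, 1788, 1581 and 1494 CPM (2.88 ± 0.74, adjusted p = 0.00153). *Ubd*, a ubiquitin-like modifier, had the highest change that passed the naming rule, at 3.64, 1.35 and 1.96 and 47.2, 62.3, 29.3, 33.7 and 32.0 CPM (4.15 ± 0.64, adjusted p = 6.41e-07). *Nos2*, inducible nitric oxide synthase, was at 51.3, 8.95 and 16.6 and 739, 923, 132, 135 and 108 CPM (3.99 ± 1.17, adjusted p = 0.00573). Here old 1 and old 2 were several-fold above old 3, old 4 and old 5, and young 1 was the highest young library, although the groups did not overlap. The inflammatory caspases had smaller and tighter differences: *Casp1* rose by 1.44 ± 0.08 and *Casp4* by 1.89 ± 0.15.

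**Figure D2:**
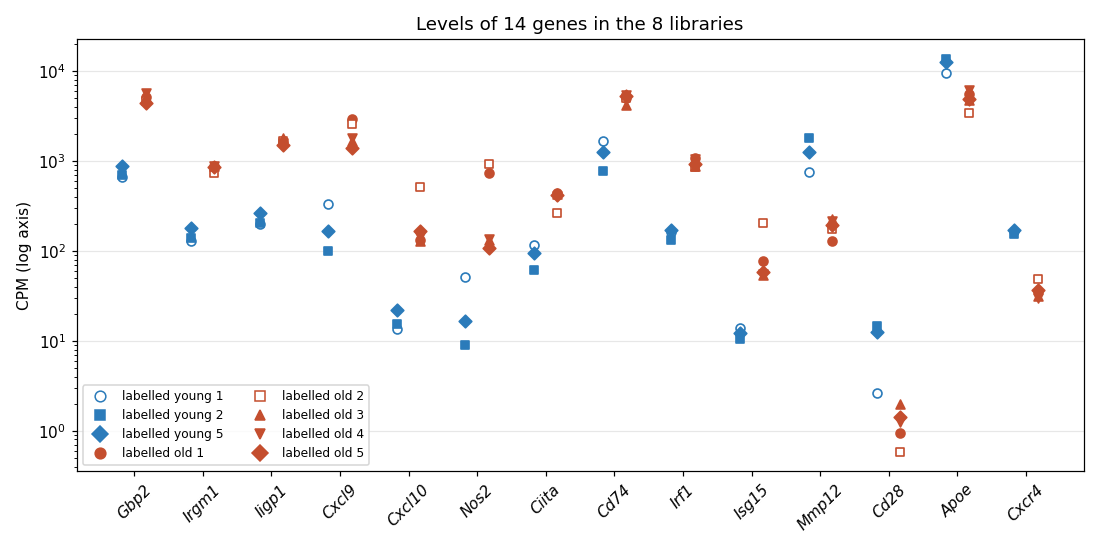
CPM on a log axis of 14 genes in each of the 8 libraries; blue symbols are young and red symbols old, and the open symbols are young 1 and old 2. The old libraries lie above the young for the 10 genes on the left, from *Gbp2* to *Isg15*, and below them for *Mmp12*, *Cd28*, *Apoe* and *Cxcr4*.

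Of 23 genes of the interferon-gamma receptor and its signalling chain, 15 were called higher and 5 lower (16 and 1 without old 2 and young 1). The transcription factor *Irf1*, switched on early in the response, was at 161, 131 and 169 CPM in the young and 1082, 849, 889, 1049.7 and 933 CPM in the old libraries (2.65 ± 0.29, adjusted p = 2.39e-10). *Socs1*, the feedback inhibitor of the receptor's kinases, was at 20, 23.3 and 29.5 and 219, 319, 169.6, 211 and 213 CPM (3.22 ± 0.52, adjusted p = 1.82e-06). Neither gene had overlapping groups. The ligand-binding receptor chain went the other way: *Ifngr1* was at 157, 170.2 and 164 and 83.6, 77.2, 129, 125 and 123 CPM (-0.61 ± 0.16, adjusted p = 0.00233), lowest in old 1 and old 2. The second chain *Ifngr2* rose slightly (0.19 ± 0.06, adjusted p = 0.015). *Stat2* (1.66 ± 0.11, adjusted p = 7.3e-18) and the tyrosine phosphatase *Ptpn2* (0.96 ± 0.06, adjusted p = 1.22e-17) rose too. *Ifng* was at or near 0 in all 8 libraries (at most 0.199 CPM).

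Type I interferon-stimulated genes, which overlap with the interferon-gamma response, rose in 33 of 34 tested cases, with 1 lower and a median change of 1.96 (32 and 1 without old 2 and young 1). *Isg15*, a ubiquitin-like protein, was at 13.8, 10.5 and 12.2 CPM in the young and 78.1, 204, 54.5, 55.9 and 58.9 CPM in the old libraries (2.89 ± 0.34, adjusted p = 1.03e-09). *Mx1*, an antiviral GTPase, was at 9.47, 6.53 and 8.36 and 56.7, 127, 35.8, 32.9 and 41.0 CPM (2.86 ± 0.39, adjusted p = 4.32e-08). *Ifi44* was at 2.33, 1.30 and 1.43 and 15.7, 64.8, 11.9, 10.2 and 17.1 CPM (3.83 ± 0.55, adjusted p = 1.51e-07). In all 3 genes old 2 was the highest library by more than 2 times, and the remaining old libraries were still above every young one. *Ch25h*, which makes the oxysterol 25-hydroxycholesterol, had the same shape at 0.882, 0.810 and 0.823 and 7.87, 37.6, 4.77, 4.92 and 4.38 CPM; its change was 2.80 without old 2 and young 1, against 3.83 ± 0.64 with all libraries. *Parp9* (1.75 ± 0.09, adjusted p = 2.39e-21) and its partner *Dtx3l* (1.66 ± 0.11, adjusted p = 2.82e-17) were even across the old libraries.

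The promoters of 2 of the genes with the highest changes are printed because their 250 bases upstream of the start hold an interferon element by its letters. They are RefSeq sequences on GRCm38.p6, 5′ to 3′ on the coding strand. The capitals mark a GAS (TTCNNNGAA) or the core of an interferon-stimulated response element, ISRE (GAAA, any 2 bases, GAAA); both strands were searched, and the motifs can overlap.
Cxcl10, chr5:92348890-92349139, minus strand: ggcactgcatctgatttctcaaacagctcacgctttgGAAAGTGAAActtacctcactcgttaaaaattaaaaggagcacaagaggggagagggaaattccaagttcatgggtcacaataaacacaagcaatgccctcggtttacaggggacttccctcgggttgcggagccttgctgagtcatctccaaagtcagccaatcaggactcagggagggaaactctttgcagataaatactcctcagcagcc
Tgtp1, chr11:48992247-48992496, minus strand: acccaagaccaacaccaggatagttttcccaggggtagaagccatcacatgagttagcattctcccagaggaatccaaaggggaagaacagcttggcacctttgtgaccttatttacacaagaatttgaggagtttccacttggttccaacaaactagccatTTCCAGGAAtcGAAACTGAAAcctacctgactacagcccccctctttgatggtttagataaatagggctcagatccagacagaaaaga
The ISRE letters begin 213 bases before the *Cxcl10* start, and in *Tgtp1* the GAS and ISRE letters begin 88 and 77 bases before it. The chemokine *Cxcl10* was at 13.5, 15.5 and 22.1 CPM in the young and 134, 517, 128, 142 and 167 CPM in the old libraries (3.68 ± 0.59, adjusted p = 1.51e-06), with old 2 far above the others. *Tgtp1*, an immunity-related GTPase with a near-identical neighbouring copy to which its reads may also belong, was at 93.5, 52.1 and 79.5 and 871, 1139, 616, 709 and 688 CPM (3.42 ± 0.72, adjusted p = 0.000124). Over windows from 250 bases before to 50 bases after the start, ISRE letters were in 3.23% of the 16118 windows of tested genes, in 5.97% of those of genes called higher and in 2.06% of those called lower. The interferon-gamma response list had them in 40% of 30 windows and the type I list in 48.3% of 29. GAS letters were in 7.07% of all windows, in 7.8% of those called higher, in 5.66% of those called lower and in 30% of the interferon-gamma list's windows. The TATA box letters TATAAA, searched as a motif of general promoters, were in 8.14% of all windows, 7.77% of those called higher and 7.95% of those called lower. A match describes the letters only.

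Antigen presentation was higher in old. Of 23 genes of MHC class I loading and the immunoproteasome, 22 were called higher and none lower, with a median change of 1.86 (22 and none without old 2 and young 1). The peptide transporter *Tap1* was at 134, 124 and 159 CPM in the young and 716, 677, 611, 702 and 694 CPM in the old libraries (2.29 ± 0.18, adjusted p = 2.91e-15). *Psme2*, a proteasome activator subunit, was at 178, 154 and 163 and 826, 884, 738, 869 and 789.7 CPM (2.31 ± 0.14, adjusted p = 1.36e-18), and the light chain *B2m* at 2026, 2059 and 2470.4 and 5416, 4794, 5413, 6022 and 5569.7 CPM (1.32 ± 0.09, adjusted p = 5.13e-17). None of these overlapped between the groups. In the MHC class II list 9 of 16 were higher and none lower, with a median of 0.91 (10 and 1.38 without the 2 libraries). *Cd74*, the invariant chain, was at 1667, 775 and 1259 and 5066, 4994, 4187, 5385 and 5204 CPM (2.01 ± 0.26, adjusted p = 1.66e-08), and the class II transactivator *Ciita* at 115, 62.0 and 93.6 and 437, 262, 424, 411 and 418 CPM (2.11 ± 0.38, adjusted p = 1.18e-05). Young 1 was the highest young library for both, and it was also the library with the most B cell message: the B cell marker *Cd79a* was at 311, 62.7 and 50.2 CPM in the young and 61.1, 197, 54.5, 58.4 and 26.6 CPM in the old libraries. B cells carry MHC class II, and their part in these values was not tested.

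Among 16 costimulatory and checkpoint ligands, 7 were higher and 2 lower (17.2% and 17% of all genes). *Cd274*, which encodes PD-L1, was at 159, 138 and 194 CPM in the young and 965, 746, 812, 821 and 768 CPM in the old libraries (2.33 ± 0.18, adjusted p = 3.49e-15). *Cd40*, a receptor for help from T cells, was at 34.4, 17.4 and 23.3 and 178, 127, 89.3, 94.6 and 85.4 CPM (2.20 ± 0.32, adjusted p = 1.5e-07). *Cd86* (1.32 ± 0.29, adjusted p = 0.000215) overlapped between the groups because young 1 was at 79.3 CPM, above old 5 at 78.5 CPM. The adhesion molecule *Icam1* rose by 2.23 ± 0.25, whereas the checkpoint receptor *Vsir*, or VISTA, fell by 1.17 on the log2 scale (364, 605 and 548 CPM in young, 179, 126, 263, 288 and 264 CPM in old).

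Chemokines were split: 10 of 24 higher and 8 lower, and 11 higher and 4 lower without old 2 and young 1. *Cxcl9*, which draws T cells through CXCR3, was at 330.1, 100.0 and 166 CPM in the young and 2925, 2549, 1645, 1779 and 1379 CPM in the old libraries (3.37 ± 0.91, adjusted p = 0.00256). *Ccl5* was at 33.9, 11.7 and 27.4 and 238, 668, 111, 145 and 173 CPM (3.45 ± 0.64, adjusted p = 2.11e-05), and the monocyte chemokine *Ccl2* at 11.8, 26.2 and 15.9 and 34.6, 55.5, 50.8, 46.9 and 37.8 CPM (1.33 ± 0.21, adjusted p = 1.71e-06). *Cxcl13*, the B cell chemokine made by resident peritoneal macrophages, was at 1181, 33.6 and 15.9 CPM in the young and 38.0, 300.0, 44.1, 49.4 and 16.2 CPM in the old libraries; its change of -2.20 ± 0.73 (adjusted p = 0.015) became 0.63 (adjusted p = 0.507) without old 2 and young 1 and -0.40 (adjusted p = 0.672) with the V-segment block. *Ccl24* gave -2.35 ± 0.66, adjusted p = 0.00385 with all libraries, was not called without the pair (-0.76, adjusted p = 0.103) and was called lower with the block (-1.40, adjusted p = 0.000316). Of the cytokines 11 of 23 were higher and 2 lower with and without the 2 libraries. *Tnf* was at 18.6, 10.6 and 16.8 and 166, 146, 69.4, 83.1 and 101 CPM (2.88 ± 0.35, adjusted p = 3e-09), *Il27* at 2.76, 2.84 and 4.79 and 35.3, 23.3, 21.8, 26.0 and 28.0 CPM (2.95 ± 0.34, adjusted p = 4.4e-10) and *Il18bp*, the soluble inhibitor of interleukin-18, at 47.1, 54.2 and 70.9 and 319, 357, 383, 426 and 397 CPM (2.71 ± 0.31, adjusted p = 6.88e-10). These groups did not overlap. *Il1b*, at 14.9, 1.73 and 2.54 and 3.56, 32.6, 5.62, 5.11 and 6.80 CPM, overlapped (0.75 ± 0.53, adjusted p = 0.296) and was called without old 2 and young 1 (1.35, adjusted p = 0.0264) and with the V-segment block (1.41, adjusted p = 0.00606). *Tgfb1* gave -0.01 ± 0.10, adjusted p = 0.943.

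**Figure D3:**
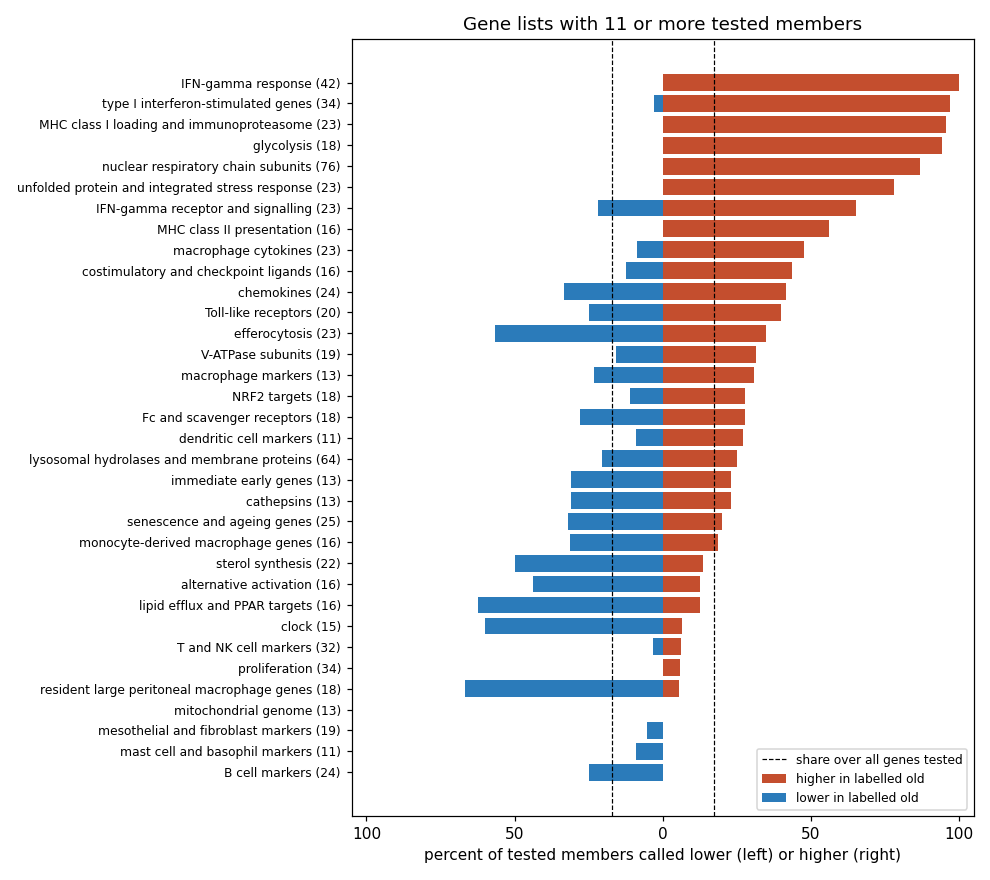
For each gene list with 11 or more tested members (number in brackets), the red bar to the right is the percent of tested members called higher in old and the blue bar to the left the percent called lower; the dashed lines are the 17.2% and 17% of all genes tested. The interferon-gamma response reaches 42 of 42 higher, and the resident macrophage genes have 12 of 18 lower.

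Genes of uptake and lipid handling moved both ways. Among the Fc receptors, *Fcgr4*, which binds IgG2, was at 51.7, 116 and 127 CPM in the young and 285, 239.6, 438, 486 and 404 CPM in the old libraries (1.92 ± 0.23, adjusted p = 1.37e-09), and *Fcgr1*, the high-affinity receptor and a classical interferon-gamma target, at 69.5, 188 and 189 and 202, 258, 410.1, 452 and 417 CPM (1.22 ± 0.28, adjusted p = 0.000371). In both, young 1 was the lowest of the young, and old 1 and old 2 the lowest of the old. The whole Fc and scavenger list had 5 of 18 higher and 5 lower (17.2% and 17% of all genes). Of 23 efferocytosis genes 8 were higher and 13 lower. The bridging ligand *Gas6* was at 25.1, 89.7 and 51.6 and 7.42, 2.80, 11.9, 14.8 and 8.83 CPM (-2.60 ± 0.27, adjusted p = 2.46e-11), while its receptor *Mertk* gave 0.53 ± 0.17, adjusted p = 0.0112 and was no longer called without old 2 and young 1 (0.42, adjusted p = 0.12). *Tgm2*, a transglutaminase, rose by 1.52 ± 0.15. Lipid efflux and PPAR target genes were lower in 10 of 16 cases and higher in 2, in both fits. *Apoe* was at 9476, 13756 and 12519.7 and 5479.5, 3430.5, 4817, 6163 and 4921 CPM (-1.26 ± 0.20, adjusted p = 1.3e-06). *Pparg* was at 6.11, 49.8 and 42.4 and 14.7, 1.48, 17.1, 19.4 and 15.1 CPM (-1.28 ± 0.37, adjusted p = 0.00501); young 1 and old 2 were the lowest of their groups, and young 1 lay below the other old libraries. The lipid-droplet coat gene *Plin2* (-0.85 ± 0.15, adjusted p = 1.18e-05) and the lipase inhibitor *Angptl4* (-2.54 ± 0.28, adjusted p = 1.34e-10) fell. In sterol synthesis 11 of 22 were lower and 3 higher: *Insig1*, the sensor that retains SREBP, was at 85.1, 79.3 and 74.0 and 48.9, 37.7, 51.0, 43.8 and 41.1 CPM (-0.84 ± 0.12, adjusted p = 2.16e-07).

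Of 20 Toll-like receptor pathway genes, 8 were higher and 5 lower (17.2% and 17% of all genes). The RNA sensor *Tlr7* fell (-1.0 ± 0.16, adjusted p = 1.22e-06), from 171, 126 and 129.7 CPM in the young to 53.5, 87.3, 76.7, 61.3 and 77.8 CPM in the old libraries. *Myd88*, the shared adaptor, was at 47.6, 47.4 and 47.2 and 88.4, 118, 86.7, 101 and 85.9 CPM (1.02 ± 0.09, adjusted p = 5.46e-14). *Tlr4* gave 0.19 ± 0.16, adjusted p = 0.408. *Tlr2* was at 224, 55.1 and 68.5 and 134, 281, 103, 112 and 147 CPM (0.42 ± 0.28, adjusted p = 0.251), and was called without old 2 and young 1 (1.05, adjusted p = 0.000404). *Cd14*, the lipopolysaccharide co-receptor, fell (-1.03 ± 0.30, adjusted p = 0.00599), with young 1 and old 2 the highest of their groups at 256 and 183 CPM.

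Lysosomal genes, which matter here because LRRK2 acts on stressed lysosomes, showed no common direction. Of 64 lysosomal hydrolases and membrane proteins 16 were higher and 13 lower (17.2% and 17% of all genes), with a median of 0.02; with the V-segment block 15 were higher and 22 lower. Cathepsins divided into 3 higher and 4 lower of 13. *Ctsc*, or dipeptidyl peptidase I, was at 593, 618 and 665 CPM in the young and 1876, 2684, 2869.9, 2867 and 2536 CPM in the old libraries (2.04 ± 0.21, adjusted p = 2.1e-11). The aspartic protease *Ctsd* was at 6274, 12513 and 11029.7 and 4933, 2613, 5913, 7199 and 5375 CPM (-0.93 ± 0.19, adjusted p = 7.49e-05) and *Ctsl* at 709, 2681 and 1962 and 774, 273, 867, 903 and 743 CPM (-1.33 ± 0.24, adjusted p = 1.64e-05). Young 1 and old 2 were the lowest libraries of their labels for *Ctsd* and *Ctsl*, and young 1 fell inside the old range for both. *Ctsb* gave -0.17 ± 0.21, adjusted p = 0.599. The palmitoyl-protein thioesterase *Ppt1* (1.56 ± 0.13, adjusted p = 1.02e-14) and the chloride-proton exchanger *Clcn7* (1.43 ± 0.15, adjusted p = 2.13e-11) rose without overlap. *Galc*, which degrades galactosylceramide, fell (-1.13 ± 0.15, adjusted p = 2.11e-08). Among 19 subunits of the proton pump that acidifies lysosomes, 6 were higher and 3 lower. *Atp6v0d2* was at 100.2, 712 and 568 and 382, 20.5, 323, 305 and 227 CPM: -0.87 ± 0.36 with all libraries (adjusted p = 0.0563), -1.0 without old 2 and young 1 (adjusted p = 3.37e-05) and -1.55 with the V-segment block (adjusted p = 1.08e-09). *Gpnmb*, a lysosomal glycoprotein of lipid-laden macrophages, went from 1791, 17702 and 15916 to 9805, 468, 10474, 11858 and 9339 CPM; it was not called with all libraries (-0.49 ± 0.42, adjusted p = 0.394) and was called lower without the pair (-0.65, adjusted p = 0.0192).

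*Lrrk2* itself, unmodified in these B6 mice, was at 182, 52.9 and 79.2 CPM in the young and 167, 226, 132, 99.9 and 128 CPM in the old libraries. The groups overlapped through young 1, and the change of 0.52 ± 0.27 did not pass with all libraries (adjusted p = 0.14). It passed without old 2 and young 1 (1.05, adjusted p = 0.00373) and with the V-segment block (0.75, adjusted p = 0.0165).

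Nuclear genes of the respiratory chain and genes of glycolysis were mostly higher in old. Of 76 nuclear subunits of the respiratory chain 66 were higher and none lower, with a median of 0.55 (65 and none without old 2 and young 1), whereas none of the 13 genes of the mitochondrial genome passed (median 0.00). *Cycs*, cytochrome c, was at 56.9, 71.1 and 65.5 CPM in the young and 149, 159, 159.8, 161 and 157 CPM in the old libraries (1.29 ± 0.09, adjusted p = 1.76e-17). *Atp5b*, the catalytic subunit of ATP synthase, was at 409, 509 and 473 and 855, 778, 807, 945 and 807 CPM (0.85 ± 0.08, adjusted p = 6.15e-12). Neither overlapped. Glycolysis had 17 of 18 higher and none lower, with a median of 0.91. *Hk3*, a hexokinase of myeloid cells, was at 254, 636 and 624 and 1893, 948, 1619.6, 1908 and 1576 CPM (1.66 ± 0.16, adjusted p = 8.15e-12), and *Pgk1* at 216, 228 and 201 and 433, 975, 406, 461 and 389.7 CPM (1.31 ± 0.18, adjusted p = 4.14e-08). Young 1 was the lowest library for *Hk3*, and old 2 more than 2 times the other old libraries for *Pgk1*. Endoplasmic reticulum chaperones and stress genes were higher in 18 of 23 cases and lower in none. The chaperone *Hspa5* rose by 0.89 ± 0.11, *Creld2* by 1.4 ± 0.10 and *Asns*, asparagine synthetase, by 1.52 ± 0.21. Of the NRF2 targets 5 of 18 were higher and 2 lower, and 2 and 3 without old 2 and young 1. *Hmox1* was at 565, 366 and 348 and 511, 2124, 391, 438 and 443 CPM, with old 2 more than 4 times the other old libraries; its change was 0.87 ± 0.33 (adjusted p = 0.0358) with it and 0.37 (adjusted p = 0.338) without old 2 and young 1.

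Clock genes were lower in 9 of 15 cases and higher in 1. *Nr1d1*, or REV-ERB alpha, was at 7.41, 4.89 and 6.06 CPM in the young and 1.11, 2.52, 2.07, 2.13 and 2.35 CPM in the old libraries (-1.59 ± 0.20, adjusted p = 9.64e-09), and *Dbp*, a direct output of the clock, at 10.3, 11.5 and 8.88 and 3.32, 2.88, 3.74, 5.03 and 4.06 CPM (-1.42 ± 0.16, adjusted p = 4.94e-10). Collection times are not in the labels. Cell cycle genes gave 2 of 34 higher and none lower, and *Mki67* overlapped between the groups (-0.22 ± 0.28, adjusted p = 0.604). Of 25 senescence and ageing genes 5 were higher and 8 lower (17.2% and 17% of all genes). *Cdkn1a*, or p21, was at 67.0, 71.9 and 62.5 and 108, 187, 74.4, 90.8 and 80.4 CPM (0.69 ± 0.19, adjusted p = 0.00318), and was not called without old 2 and young 1 (0.45, adjusted p = 0.0728). *Cdkn2a*, the p16 locus, was at 7.03, 1.67 and 2.71 and 9.73, 10.9, 1.71, 2.42 and 4.21 CPM (0.61 ± 0.50, adjusted p = 0.38).

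The 12 lower genes of largest change among those called with and without old 2 and young 1, with groups that did not overlap and at 5 CPM or more in young, included proteases and a coagulation factor. *Mmp12*, macrophage elastase, was at 751, 1793 and 1268 CPM in the young and 129.9, 176, 228, 215 and 192 CPM in the old libraries (-2.75 ± 0.18, adjusted p = 9.87e-18). The collagenase *Mmp8*, otherwise a neutrophil product, was at 8.45, 58.8 and 64.2 and 1.92, 2.19, 6.28, 5.96 and 5.93 CPM (-3.30 ± 0.43, adjusted p = 1.34e-08). *F13a1*, the coagulation transglutaminase carried by monocytes and macrophages, was at 83.3, 87.2 and 90.7 and 3.83, 3.92, 13.4, 11.9 and 14 CPM (-3.21 ± 0.32, adjusted p = 1.21e-11). The old libraries lay below all young ones in these 3 genes, and old 1 and old 2 were the lowest. *Cd28*, a costimulatory receptor best known from T cells, was at 2.60, 14.6 and 12.4 and 0.947, 0.584, 1.97, 1.25 and 1.42 CPM (-3.00 ± 0.33, adjusted p = 2.47e-10), while the T cell receptor chain gene *Cd3e* was at or below 1.11 CPM in every library. *Thbs1*, thrombospondin 1, was at 3991, 844 and 971 and 60.2, 763, 211, 160.2 and 181 CPM (-2.81 ± 0.49, adjusted p = 7.36e-06), with young 1 far above the others. *Reps2* (-3.37 ± 0.24, adjusted p = 8.39e-17), *Rab44* (-3.56 ± 0.38, adjusted p = 7.65e-11), *Mmp27* (-3.26 ± 0.25, adjusted p = 2.43e-15), *Fcrls* (-3.28 ± 0.33, adjusted p = 1.89e-11), *Cmbl* (-3.00 ± 0.33, adjusted p = 2.54e-10), *Abca9* (-2.95 ± 0.36, adjusted p = 3.44e-09) and *Mlph* (-2.95 ± 0.32, adjusted p = 1.15e-10) completed the 12.

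Among abundant genes in none of the lists, *Cxcr4*, the receptor for CXCL12, was at 168, 154 and 171 CPM in the young and 35.3, 48.8, 31.8, 29.8 and 37.1 CPM in the old libraries (-2.17 ± 0.10, adjusted p = 2.79e-22). *Epas1*, or HIF-2 alpha, was at 121, 284 and 217 and 27.8, 10.9, 46.5, 39.9 and 37.3 CPM (-2.68 ± 0.23, adjusted p = 1.37e-13), and the transferrin receptor *Tfrc* at 53.7, 207 and 183 and 29.0, 29.7, 42.9, 30.0 and 37.9 CPM (-2.12 ± 0.22, adjusted p = 1.85e-11). *Tns1* fell by 2.16 and *Padi4* by 2.13 on the log2 scale, the latter by 1.04 without old 2 and young 1. On the higher side, *Upp1*, uridine phosphorylase, was at 10.4, 5.62 and 7.69 and 108, 230.1, 75.1, 89.7 and 74.7 CPM (3.87 ± 0.59, adjusted p = 5.74e-07), and *Procr*, the endothelial protein C receptor, at 38.1, 15.1 and 19.2 and 333, 924, 107, 130.3 and 118 CPM (3.74 ± 0.67, adjusted p = 1.18e-05). The formyl peptide receptor *Fpr2* (3.25 ± 0.66, adjusted p = 7.87e-05), the niacin receptor *Hcar2* (3.05 ± 0.60, adjusted p = 4.78e-05), *AW112010* (3.29 ± 0.51, adjusted p = 7.22e-07) and *Calhm6* (2.81 ± 0.49, adjusted p = 6.67e-06) rose as well, as did *Ly6i* (4.07 ± 0.85, adjusted p = 0.000116) and *Clic5* (3.50 ± 0.41, adjusted p = 9.43e-10).

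Genes of resident macrophages were high in both libraries that stood apart. Of the 18 genes 12 were called lower in old and 1 higher with all libraries, with a median of -1.65; without old 2 and young 1 it was 6 and 1, with a median of -0.72. *Prg4*, proteoglycan 4, was at 1539, 78.0 and 102 CPM in the young and 173, 1479, 92.6, 91.4 and 127 CPM in the old libraries (-0.55 ± 0.74, adjusted p = 0.621). *Alox15* was at 1123, 16.2 and 25.1 and 12.4, 93.8, 5.99, 6.71 and 13.1 CPM, and its change of -3.88 ± 0.76 (adjusted p = 4.54e-05) shrank to -1.06 (adjusted p = 0.154) without the pair and to -1.89 (adjusted p = 0.00699) with the block. *Timd4*, a phosphatidylserine receptor, ran the other way at 67.4, 4.80 and 4.26 and 72.4, 410.3, 38.0, 41.8 and 20 CPM (2.20 ± 0.89, adjusted p = 0.0491). *Gata6* itself, at 43.5, 8.83 and 12.2 and 3.09, 8.38, 3.15, 3.56 and 4.81 CPM, was called lower both with (-2.23 ± 0.32, adjusted p = 1.53e-07) and without the pair (-1.48, adjusted p = 3.63e-05). The scavenger receptor *Marco* (1274, 218 and 85.8 and 259, 1573, 379, 414 and 140.4 CPM; 0.07 ± 0.63, adjusted p = 0.95) and the arginase *Arg1* (885, 101 and 113 and 173, 1048, 282, 281 and 446 CPM; 0.29 ± 0.49, adjusted p = 0.705) were highest in young 1 and old 2. *Arg1* was called higher in old without them (1.51, adjusted p = 0.0102). *Ly6c2*, a monocyte gene, was at 21.1, 20.5 and 30.5 and 31.6, 285, 125, 145 and 234 CPM (2.77 ± 0.67, adjusted p = 0.000852), with old 1 near the young level.

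Of the markers of other cell types, the B cell, mast cell and red cell lists differed between libraries within each label. The summed dendritic cell markers were higher in every old than in every young library, but *Clec9a* is a large part of that sum. *Clec9a* alone ran from 15.1 to 19.2 CPM in the young and from 28.0 to 134 CPM in the old libraries. The mean log2 CPM of the same list overlapped, at 0.25 to 1.37 in the young and 0.42 to 1.23 in the old libraries, highest in young 1. The 24 B cell markers had 6 lower and none higher (1 lower without old 2 and young 1), and their summed level ran from 816 to 3970 CPM in the young and from 494 to 2827 CPM in the old libraries, highest in young 1 and old 2. T and NK markers had 2 of 32 higher and 1 lower (sums of 124 to 482 and 92.5 to 283.7 CPM), against 17.2% and 17% of all genes. Mast cell and basophil markers had 1 of 11 lower (17.5 to 132.7 and 11.1 to 83.1 CPM), with *Mcpt8* at 0 in all 8. Neutrophil markers had 1 of 9 higher and 5 lower (302 to 359 and 235 to 321 CPM), eosinophil markers 2 of 5 lower (19.3 to 43.1 and 12.2 to 26.1 CPM) and dendritic cell markers 3 of 11 higher and 1 lower (39.3 to 76.4 and 80.2 to 170.9 CPM). Mesothelial and fibroblast markers had 1 of 19 lower (59.2 to 654.1 and 25 to 437 CPM), and none of the 5 red cell markers passed (1.17 to 232.8 and 1.44 to 271.3 CPM). *Hbb-bs*, adult beta globin, was at 63.7, 0.318 and 13.6 CPM in the young and 44.6, 80.2, 0.438, 0.365 and 20.1 CPM in the old libraries: it was lowest in young 2, old 3 and old 4, the set alike in V segments. The Y-linked *Ddx3y* was at 5.89, 0.125 and 8.93 and 0.767, 0.818, 0.0974, 0.0644 and 1.01 CPM in these libraries labelled female, beside *Xist* at 333, 264 and 291 and 239.6, 198, 240.4, 144 and 201 CPM, and 4 of 5 tested sex-linked genes were called lower in old. The part of any of these in the results was not tested. In bulk RNA, fewer cells of a type and less RNA per cell cannot be told apart.

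**Figure D4:**
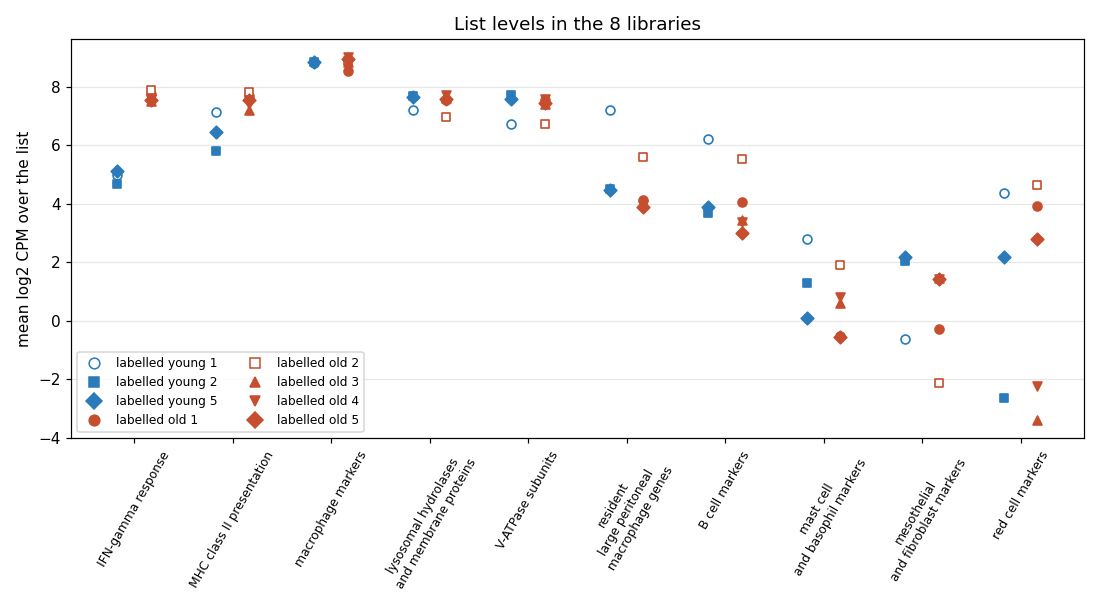
Mean log2 CPM of 10 gene lists in each of the 8 libraries, young in blue and old in red, with young 1 and old 2 as open symbols. The interferon-gamma response separates by label, whereas resident macrophage, B cell and mast cell genes are highest in young 1 and old 2 and red cell genes are lowest in young 2, old 3 and old 4.

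Differences were also taken between old and young libraries alike in V-segment use: old 2 minus young 1, the mean of old 3 and old 4 minus young 2, and old 5 minus young 5. *Gbp2* differed by 2.81, 2.96 and 2.31 in log2 CPM in the 3 sets, *Irf1* by 2.40, 2.89 and 2.46, and *Tap1* by 2.34, 2.40 and 2.12. *Cxcr4* gave -1.79, -2.33 and -2.20 and *Mmp12* -2.09, -3.02 and -2.73. Each of these 5 genes had the same sign in the 3 sets. *Gpnmb* gave -1.94, -0.67 and -0.77, and *Atp6v0d2* -2.29, -1.18 and -1.32, so that both were lower in old in every set, and by most in the pair that stood apart. *Alox15* (-3.58, -1.36 and -0.94) and *Cxcl13* (-1.98, 0.47 and 0.03) had unequal values in the sets. With the sets as a block, 3698 genes (16.7%) were higher and 3483 (15.7%) lower in old, of which 3476 and 3144 were among the calls without the block, with none opposite.

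**Figure D5:**
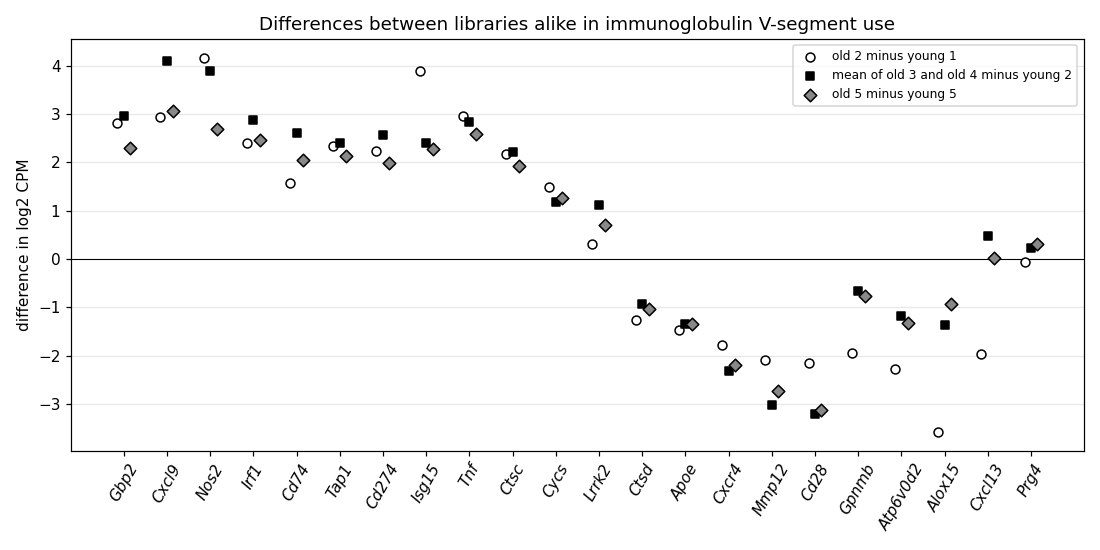
Difference in log2 CPM (old minus young label) of 22 genes within each of 3 sets of libraries alike in V-segment use; circles are old 2 minus young 1, squares the mean of old 3 and old 4 minus young 2, and diamonds old 5 minus young 5. The interferon targets on the left are above 0 in all 3 sets, *Apoe*, *Cxcr4*, *Mmp12* and *Cd28* are below 0, and *Alox15* and *Cxcl13* scatter between sets.

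The age label difference was smaller for many genes than in untreated libraries of the same sex and genotype. The difference itself differed between the treatment labels for 401 genes (1.81% of those tested), 47 higher and 354 (1.6%) lower under interferon-gamma, and for 234 without old 2 and young 1. Leaving out old 2 alone gave 75 higher and 557 lower, young 2 alone 96 higher, young 1 alone 25 higher and old 5 alone 30 higher. The lower set held 21 of the 42 interferon-gamma response genes, 8 of 16 MHC class II genes and 10 of 23 MHC class I genes, and none of the 3 lists had a gene in the higher set. *Pdcd1lg2*, or PD-L2, rose from 10.1 to 34.1 CPM (means of 3 and 5) under interferon-gamma and from 1.25 ± 0.359 to 71.6 ± 15.7 CPM (SD, n = 3 and 5) untreated, a difference of -4.08 ± 0.48. *Serpina3g* (-4.32 ± 0.88), the profilin sensor *Tlr12* (-4.44 ± 0.83) and the nuclease *Dnase1l3* (-4.78 ± 0.78) had the same form. *Lrrk2* averaged 29.7 ± 7.21 CPM in untreated young and 116 ± 16.2 CPM in untreated old libraries (SD, n = 3 and 5), and its difference by treatment was -1.44 (adjusted p = 0.033), and -0.93 (adjusted p = 0.292) without old 2 and young 1. The old minus young value was higher under interferon-gamma for *Pdgfa* (1.24 ± 0.30), *Gadd45a* (1.03 ± 0.22), *Slc22a4* (0.92 ± 0.25) and *Sgms2* (0.80 ± 0.22). *Pdgfa*, *Gadd45a* and *Slc22a4* had lower means in old under both treatment labels, and by less under interferon-gamma. *Pdgfa* averaged 15.2 CPM in young and 7.88 CPM in old under interferon-gamma, and 34.3 and 7.57 CPM untreated. *Sgms2* was higher in old under interferon-gamma (0.42 ± 0.16, and 0.21 without old 2 and young 1). Untreated, it averaged 35.3 CPM in young and 27.2 CPM in old. The adjusted p-values of the 8 genes named are 3.44e-07, 0.00225, 0.00072, 0.00012, 0.0151, 0.00417, 0.0365 and 0.0401, in the order given. Without old 2 and young 1, *Pdgfa* (1.11, adjusted p = 0.118), *Slc22a4* (0.54, adjusted p = 0.362) and *Sgms2* (0.56, adjusted p = 0.265) were no longer called, and the other 5 were.

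Against wild-type males with interferon-gamma (5 libraries of each age label), 5 genes differed in the age label difference (0.0226%), all lower in females: *Rnase6* (-1.48 ± 0.30), *Tlr9* (-1.40 ± 0.28), *Dusp10* (-0.89 ± 0.15) and *P2ry14* (-0.88 ± 0.17) were those that passed the naming rule. At an unadjusted p under 0.05 there were 1505, DESeq2 called 47, and none was called without old 2 and young 1. The count reached 167 without young 2, 40 without young 5 and 32 without old 2, and was 0 without young 1, 2 without old 1 or old 4, and 1 without old 5. *P2ry14*, the receptor for UDP-glucose, was at 20, 22.8 and 23.5 CPM in the young and 78.3, 49.9, 81.1, 84.6 and 65.8 CPM in the old females, and at 13.8 ± 1.84 and 82.9 ± 2.50 CPM in young and old males (SD, n = 5 each).

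Against R1441C knock-in females with interferon-gamma (5 old and 2 young libraries), the age label difference differed for 210 genes (0.948%), 25 higher and 185 lower in wild-type, and for 670 without old 2 and young 1. Leaving out 1 library gave 301 lower without young 1, 332 without old 2 and 293 without old 4; the higher set numbered 46, 60 and 65 in these and 41 without young 2. The lower set held 8 of the 16 MHC class II genes, 7 of 23 MHC class I genes and 4 of the 42 interferon-gamma response genes. *Klrk1*, or NKG2D, was at 3.96, 5.38 and 6.02 CPM in the young and 21.6, 19.6, 27.2, 26.0 and 21.6 CPM in the old wild-type libraries and averaged 0.566 ± 0.50 CPM in the young and 30.7 ± 3.04 CPM in the old knock-in libraries (SD, n = 2 and 5), a difference of -3.58 ± 0.61. The same form was seen for *Tlr12* (-3.47 ± 0.90), *Ptgs2os2* (-2.98 ± 0.67) and *Ocstamp* (-2.85 ± 0.65). *Naip5* (0.87 ± 0.17), *Xdh* (0.86 ± 0.15), *Slc26a11* (0.79 ± 0.21) and *Dclre1c* (0.77 ± 0.18) had a higher old minus young value in wild-type than in knock-in; without old 2 and young 1, *Slc26a11* (0.56, adjusted p = 0.0846) and *Dclre1c* (0.62, adjusted p = 0.075) were not called. The untreated, male and knock-in libraries are all distinct from the 8 described here, and all rest on the same fit.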

How the data were processed

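Polyadenylated RNA of cultured mouse peritoneal macrophages was read by paired-end sequencing of strand-marked libraries, per the labels' protocols. The deposited table holds raw counts per gene for 63 libraries; the submitters' processing notes name STAR 2.7.9a, DESeq2 1.40.2 and GRCm39, and the counting step is not given in the sources used here. Symbols were found for 52073 of 56748 genes. Here, 22147 genes that passed filterByExpr were fitted with edgeR 4.0.16 (R 4.3.3; TMM factors, 16 group coefficients, quasi-likelihood F test, 47 residual degrees of freedom, Benjamini-Hochberg adjustment over all genes tested, called at 0.05). The procedure was tried on simulated counts of the 8 libraries alone, in 2 groups. Over 22147 genes it recovered 95.9% of 98 genes changed by 1 and 100% of 102 genes changed by 2 on the log2 scale, with 3.92% false calls. The simulation gave all genes 1 spread and held no libraries that stand apart. Its rates therefore need not hold for the fit of 63 libraries. CPM are counts per 1000000 of the TMM-scaled library size. The labels pair the libraries by no animal or day. Alternatives were the 2 libraries left out, DESeq2 1.42.0 and its size factors, limma 3.58.1 (voom with library weights), other filters, a fit of the 8 libraries, a replicate block and each library left out. The members and gene lists were chosen with earlier results of these data known. Named genes are up to 12 each way by size among those called with and without old 2 and young 1, not overlapping and at 5 CPM or more; up to 4 by p per list; listed key genes; up to 4 each way per difference; and up to 6 each way in no list at 100 CPM or more. Predicted genes, pseudogenes and receptor segments were passed over. Genes sharing reads with close copies are uncertain. A few genes that the rule names are not reported here.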

Additional observations from a re-analysis of the deposited data

Results flagged for a closer look

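Among the 5 old libraries, 1 library was far from the other 4 in 34 of the 144 genes named, by the gap to its nearest neighbour over the whole range. For a single gene with normal spread, chance alone gives this in about 1 of 20 groups. The named genes are not independent, so that rate is no test of the 34. The library was old 2 in 34 of these genes. That old 2 stood apart was known beforehand, so the count is a description. Old 2 was the highest, with its CPM in brackets, for *Alox15* (93.8), *Ccl24* (12.3), *Ccl5* (668), *Cd14* (183), *Cd79a* (197), *Ch25h* (37.6), *Cxcl10* (517), *Cxcl13* (300.0), *Fpr2* (404), *Hmox1* (2124), *Hspa1a* (43.7), *Ifi44* (64.8) and *Il1b* (32.6). It was also the highest for *Isg15* (204), *Ly6i* (1178), *Marco* (1573), *Mx1* (127), *Nr4a1* (12.0), *Pgk1* (975), *Prg4* (1479), *Procr* (924), *Ptpn2* (46.0), *Slc7a11* (209), *Tgm2* (1712), *Thbs1* (763) and *Timd4* (410.3). It was also the highest for *Tlr2* (281) and *Upp1* (230.1). It was the lowest for *Ciita* (262), *Ctsl* (273), *Galc* (43.2), *Gpnmb* (468), *Irgm1* (739) and *Pparg* (1.48). Old 2 is one of the 2 libraries left out in the second set of values.

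The age label difference itself differed between the treatment labels in wild-type females for 44 of the genes named, by an interaction term in the edgeR fit, and the values in brackets are the differences (interferon-gamma minus untreated) in log2 change. It was lower with interferon-gamma for *AW112010* (-2.27), *Calhm6* (-3.17), *Cd274* (-0.89), *Cd40* (-1.52), *Cd74* (-2.43), *Cd86* (-1.71), *Ciita* (-3.11), *Clec9a* (-3.60), *Ctsc* (-1.60), *Cycs* (-0.53), *Dnase1l3* (-4.78), *Dtx3l* (-0.68) and *Dusp10* (-0.96). The same held for *Gbp2* (-3.58), *Hcar2* (-3.24), *Icam1* (-1.61), *Iigp1* (-3.45), *Il18bp* (-2.0), *Irf1* (-1.96), *Irgm1* (-1.91), *Klrk1* (-3.50), *Lrrk2* (-1.44), *Ocstamp* (-3.55), *P2ry14* (-1.04), *Parp9* (-0.58) and *Pdcd1lg2* (-4.08). The list of lower values ends with *Ppt1* (-0.92), *Psme2* (-0.65), *Ptgs2os2* (-3.91), *Ptpn2* (-0.35), *Rnase6* (-2.81), *Serpina3g* (-4.32), *Socs1* (-2.70), *Stat2* (-0.53), *Tap1* (-1.33), *Tlr12* (-4.44) and *Tlr9* (-2.36). It was higher with interferon-gamma for *Cxcr4* (0.54), *Gadd45a* (1.03), *Naip5* (0.78), *Pdgfa* (1.24), *Sgms2* (0.80), *Slc22a4* (0.92) and *Slc26a11* (0.75). Without old 2 and young 1, 31 of these were called in the same direction and 13 were not called: *AW112010*, *Cd274*, *Cd40*, *Cd86*, *Cxcr4*, *Iigp1*, *Lrrk2*, *Pdgfa*, *Psme2*, *Ptpn2*, *Sgms2*, *Slc22a4* and *Slc26a11*.

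Between the sexes the age label difference under interferon-gamma differed (female minus male) for *Dusp10* (-0.89), *P2ry14* (-0.88), *Rnase6* (-1.48) and *Tlr9* (-1.40). Between wild-type and knock-in females (wild-type minus knock-in) it was lower for *Atp5b* (-0.53), *Calhm6* (-2.58), *Ccl2* (-1.19), *Cd74* (-1.82), *Ctsc* (-1.28), *Cycs* (-0.64), *Dusp10* (-0.78), *Icam1* (-1.63), *Irgm1* (-1.32), *Klrk1* (-3.58), *Myd88* (-0.48), *Ocstamp* (-2.85) and *P2ry14* (-0.87). It was also lower for *Pdcd1lg2* (-2.58), *Ppt1* (-0.85), *Psme2* (-0.75), *Ptgs2os2* (-2.98), *Ptpn2* (-0.35), *Rnase6* (-2.14), *Tap1* (-1.0), *Tlr12* (-3.47) and *Tlr9* (-1.45). It was higher for *Dclre1c* (0.77), *Naip5* (0.87), *Slc26a11* (0.79) and *Xdh* (0.86). Without old 2 and young 1, none of the 4 by sex was called, and by genotype 24 were called in the same direction and *Dclre1c* and *Slc26a11* were not.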

How the results depend on the processing

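The age label counts (3804 higher, 3773 lower) stayed within 1.5 times under DESeq2 and its size factors, limma voom, both other filters, the pair left out, the V-segment block and old 3 and old 4 summed; the last 2 were chosen after seeing the data. They moved to 1787 and 1215 in a fit of the 8 libraries only. That fit takes the spread from fewer samples, with old 2 and young 1 among them, and why the counts fell was not tested. Replicate numbers did not pair the libraries throughout. Deviations from the group means correlated at 0.14 for number 1, -0.52 for number 2 and 0.37 for number 5, and young 1 correlated best with old 2 (0.63). Of these numbers, only number 5 joined libraries of the same V-segment set. The deviations are taken from each group's own mean, so they are not independent. A replicate block in the 8 libraries, with 2 residual degrees of freedom, called 0 higher and 0 lower by edgeR, with 3884 genes at an unadjusted p under 0.05. Leaving out each library in turn gave 3509 to 4048 higher and 3029 to 3894 lower. No libraries of a group agreed within sampling noise, so none was joined.

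Counts of differences between differences depended more on the settings, and the cause was not tested. By treatment (47 higher, 354 lower) they were 20 and 214 without the pair, 94 higher and 531 lower with DESeq2, 202 and 662 with voom, 27 higher without a filter, 99 higher with the stricter filter and 102 higher with the V-segment block; leaving out 1 library gave 25 to 96 higher and 253 to 557 lower. By sex (0 higher, 5 lower) they were 0 lower without the pair, 6 and 41 with DESeq2, 4 and 38 with voom, 2 higher with the stricter filter, 3 lower with the V-segment block and 2 lower with old 3 and old 4 summed; leaving out 1 library gave 0 to 38 higher and 0 to 129 lower. By genotype (25 higher, 185 lower) they were 637 lower without the pair, 290 lower with DESeq2's size factors, 107 and 652 with DESeq2, 1325 and 1695 with voom, 10 and 123 without a filter, 64 and 414 with the stricter filter, and 117 and 413 with the V-segment block; leaving out 1 library gave 19 to 65 higher and 138 to 332 lower.

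Of the 144 named genes, 128 kept their direction and call without the pair, 8 lost the call, 7 gained it and 1 changed sign. With the V-segment block 135 kept both, 2 lost the call and 7 gained it; with DESeq2 143 kept both. The fit of the 8 libraries lost 28 calls and the replicate block 122. *Cxcl13* changed sign to 0.63 without the pair and 0.40 with voom. Leaving out 1 library, *Cxcl13* ran from -3.48 to 1.87, *Alox15* from -5.34 to 0.37 and *Ccl24* from -4.52 to 1.37, each lowest without old 2 and highest without young 1, and *Slc7a11* from -0.24 without old 2 to 2.03 without young 1. Even with libraries of 73.6 M counts or more, *Ifng* was near the floor, at 0 in young 1, young 2 and old 2 and at most 0.199 CPM elsewhere. The number of libraries, 5 against 3, limits precision.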

Other observations

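Some called genes of the cell type lists were not given library by library above, and which cells carried them was not tested. *S100a8*, a calcium-binding alarmin listed as a neutrophil marker, was at 13.8, 16.1 and 14.7 CPM in young 1, 2 and 5 and 32.1, 33.5, 44.3, 43.0 and 48.5 CPM in old 1 to 5 (1.44 ± 0.19, adjusted p = 2.35e-08), while the neutrophil receptor gene *Csf3r* gave -0.14 ± 0.12, adjusted p = 0.365. *Clec9a*, a dendritic cell lectin, was at 15.1, 17.4 and 19.2 and 134, 28.0, 99.5, 106 and 68.2 CPM (2.33 ± 0.51, adjusted p = 0.000237), with old 2 nearest the young libraries. It was 1 of 3 dendritic cell markers called higher, beside 1 called lower, of 11. The others were *Xcr1*, at most 0.857 CPM and without overlap (2.05 ± 0.49, adjusted p = 0.000696), and *Batf3*, which overlapped (0.81 ± 0.22, adjusted p = 0.00241). Both were also called without old 2 and young 1. *Flt3*, a defining dendritic cell receptor, stayed at or below 0.890 CPM in every library (0.11 ± 0.35, adjusted p = 0.854). *Tbx21*, or T-bet, was at 0.276, 0.164 and 0.274 and 1.94, 3.31, 0.458, 0.333 and 0.934 CPM (2.55 ± 0.57, adjusted p = 0.000304), highest in old 2 and old 1.

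Stress and early response genes set old 2 apart from the other old libraries. The heat shock gene *Hspa1a* was at 5.29, 4.96 and 5.23 and 10.7, 43.7, 6.29, 6.29 and 8.13 CPM (1.54 ± 0.44, adjusted p = 0.0047), and gave 0.68 (adjusted p = 0.232) without old 2 and young 1. *Slc7a11*, the cystine transporter, was at 31.9, 10.9 and 16.4 and 23.3, 209, 14.6, 10.6 and 17.9 CPM (1.48 ± 0.53, adjusted p = 0.0239), and gave 0.33 (adjusted p = 0.548) without them. The early response gene *Nr4a1* was at 15.3, 7.60 and 8.42 and 3.14, 12.0, 2.10, 1.81 and 2.42 CPM and fell both with (-1.28 ± 0.34, adjusted p = 0.0025) and without the 2 libraries (-1.70, adjusted p = 3.65e-06).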
